A study of Mus musculus with 18 samples.

Results

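The interval from day 1 to day 3 of factor induction was examined in mouse fibroblasts on the way to induced pluripotent stem cells. It is covered by 4 of the 18 arrays of the series, 2 from day 3 and 2 from day 1, chosen by the day in their labels, and by all 20233 genes measured. The other 14 arrays entered the fit and come from days 0, 5, 7, 11, 15 and 18 and from an established iPSC line. Day 0 cells had a fibroblast medium with 10% serum and neither doxycycline nor vitamin C, the cells of days 5 to 15 had the conditions of day 3, and day 18 cells were collected 3 days after both additives were withdrawn. The iPSC were kept in the stem cell medium with Gsk3 and Mek inhibitors, with or without feeder cells. The cells of day 3 and of day 1 were embryonic fibroblasts at passage 4, of an Oct4-GFP and Rosa26-M2rtTA background, in which the ubiquitous Rosa26 locus drives the doxycycline-dependent activator. They came from E13.5 embryos that tetraploid complementation had made wholly of iPSC, and they carried doxycycline-inducible Oct4, Sox2, Klf4 and c-Myc. On day 3, as on day 1, they were on gelatin in a stem cell medium with 15% serum, 1000 U/ml LIF, 1 µg/ml doxycycline and 50 µg/ml vitamin C. Drug, vitamin, serum and LIF were thus shared, and the groups differed by time in these conditions. No parallel culture without doxycycline was among the samples, so time in the medium and time under the factors cannot be told apart. The number of embryos behind the cells is not given in the sources used here, nor is it stated whether the arrays of a day were separate cultures, so the p-values cover array-to-array spread, which may be technical.

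Reprogramming of fibroblasts is known to start with the loss of the mesenchymal programme, in which cells secrete and crosslink collagen and pull on it with actin and myosin. Epithelial genes come on in the same early phase, and the endogenous pluripotency network follows later. Keratinocytes, the epithelial cells of the epidermis, are built on keratin filaments tied to desmosomes and hemidesmosomes, and their outer layers replace the membrane by a cornified envelope of crosslinked small proteins. The fibroblasts of the series are bulk cultures, in which fewer cells of a type and less RNA per cell cannot be told apart.

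Levels are log2 RMA values, 1 per gene and array. The level that 95% of 1075 olfactory receptor genes did not exceed, 5.32, served as background, since these receptors are mostly silent outside the nose. A gene was called where its adjusted p (limma, Benjamini-Hochberg over all genes) was under 0.05 and day 3 differed from day 1 by at least 1 on the log2 scale, which is 2-fold. The arrays of a day were close to each other, with r = 0.9977 over genes on day 3 and 0.9984 on day 1, and 8 and 5 genes over 2-fold apart. Pou5f1, which encodes Oct4, read 10.24 and 10.31 on day 3, against 10.28 and 10.32 on day 1, with a day 0 mean of 4.77. Klf4 read 10.01 and 9.97 on day 3 and 9.87 and 9.90 on day 1, and Myc 10.89 and 10.92 on day 3 and 10.81 and 10.92 on day 1. Sox2 was low on both days, at 6.34 and 6.41 on day 3 and 5.98 and 6.06 on day 1. By limma 0 of these 4 genes were called and 1, Sox2, had an unadjusted p under 0.05. Over all 20233 genes 8760 had such a p. Whether the probes of these 4 genes read the transgenes was not tested.

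Between day 1 and day 3 some genes of keratinocytes rose, and some genes of the fibroblast's matrix and contractile apparatus fell. Most called genes lay outside the lists of such genes. Genes of the cell cycle, energy and pluripotency were nearly all uncalled, as were most genes measured. In all, 146 genes were higher on day 3, 0.722% of those tested, and 468 were lower, 2.31%. The log2 differences ran from -2.98 to 4.39 around a median over all genes of 0.07. Differences of at least 2, which is 4-fold, were found for 19 of the rises and 48 of the falls. The arrays of the 2 days did not overlap for any of the 614 called genes, but that was so for 14545 of all genes (71.9%) as well. The median level of the risen genes was 7.93 on day 3, against 6.32 on day 1, and that of the fallen genes 7.16 on day 3, against 8.52 on day 1. The lower of the 2 levels lay under background for 32 rises and 53 falls. Their differences are lower bounds where the higher level exceeded background. With genes under background on both days left out of the fit, 143 were called higher and 458 lower.

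**Figure D1:**
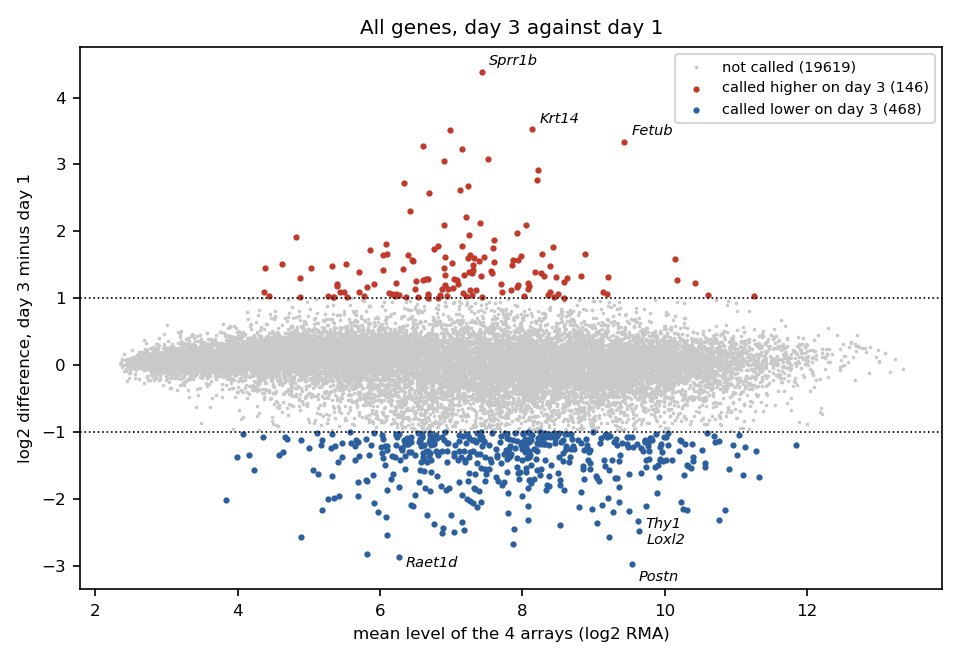
Each point is 1 of the 20233 genes, with its mean log2 level over the arrays of both days on the horizontal axis and its log2 difference, day 3 minus day 1, on the vertical axis. The 146 genes called higher reach 4.39 and the 468 called lower reach -2.98, while the bulk lies near the median of 0.07.

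The largest rise was that of Sprr1b, a small proline-rich protein that is crosslinked into the cornified envelope. It stood at 9.68 and 9.57 on day 3, against 5.55 and 4.92 on day 1, a log2 difference of 4.39 ± 0.18 (SE) or 20.9-fold (limma adjusted p = 2.17e-09). Since its day 1 mean is under background, this is a lower bound. Sprr1a, its neighbour and paralog, read 8.86 and 8.97 on day 3 and 6.90 and 6.97 on day 1. Krtdap, a secreted protein of differentiating keratinocytes, read 8.20 and 8.29 on day 3, against 4.85 and 5.10 on day 1, with day 1 again under background. Cnfn, or cornifelin, an envelope component, read 9.64 and 9.74 on day 3 and 6.85 and 6.69 on day 1. For each of these genes both day 3 arrays lay above both day 1 arrays, and the arrays of a day were close together except those of Sprr1b on day 1.

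Promoters of some genes that moved most are shown, since AP-1 factors are known to drive some epidermal ones from sites near a TATA box. RefSeq promoters of GRCm38.p6 were found for 9 of the 15 genes with the largest rise and 14 of the 15 with the largest fall. The 250 bases before an annotated start are printed for Sprr1b (chr3:92438780-92439029, minus strand), Krtdap (chr7:30787655-30787904, plus strand) and Fetub (chr16:22918132-22918381, plus strand), which rose, and for Postn (chr3:54360857-54361106, plus strand), the gene that fell most. Fetub and Postn each have another annotated start, and of their 2 windows the one with a TATA match is shown. Capitals mark matches, on either strand, to the AP-1 motif TGANTCA and to TATAAA, the core of the TATA box, and these matches do not overlap.
Sprr1b: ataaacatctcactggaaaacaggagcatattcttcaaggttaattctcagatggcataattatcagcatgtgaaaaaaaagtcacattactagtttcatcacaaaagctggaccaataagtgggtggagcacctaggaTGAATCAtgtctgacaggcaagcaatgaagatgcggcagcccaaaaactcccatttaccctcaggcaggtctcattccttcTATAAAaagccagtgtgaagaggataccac
Krtdap: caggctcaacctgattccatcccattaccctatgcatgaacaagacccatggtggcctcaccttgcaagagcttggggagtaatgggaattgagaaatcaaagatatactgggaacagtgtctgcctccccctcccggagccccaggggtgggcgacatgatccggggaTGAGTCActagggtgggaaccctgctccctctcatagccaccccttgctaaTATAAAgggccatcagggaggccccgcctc
Fetub: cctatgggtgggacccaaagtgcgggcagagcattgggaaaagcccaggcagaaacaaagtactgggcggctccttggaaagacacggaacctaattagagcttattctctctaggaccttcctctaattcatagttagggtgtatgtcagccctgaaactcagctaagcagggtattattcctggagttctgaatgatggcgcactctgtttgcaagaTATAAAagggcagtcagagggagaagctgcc
Postn: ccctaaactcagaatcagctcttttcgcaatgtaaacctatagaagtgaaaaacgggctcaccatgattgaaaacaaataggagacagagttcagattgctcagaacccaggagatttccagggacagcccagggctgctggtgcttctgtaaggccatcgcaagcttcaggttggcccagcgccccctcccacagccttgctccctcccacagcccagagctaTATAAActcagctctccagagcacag

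An AP-1 match began 111 bases before the start in Sprr1b and 81 bases before it in Krtdap, and a TATA match began 30 bases before the start in both. Fetub and Postn had a TATA match at 31 and 26 bases and no AP-1 match in these letters, and the 250 bases before their other starts held neither. Of the other largest rises with a promoter, Ly6g6c had a TATA match, and Krt14, Cnfn, Krt8, Kcnj3 and Rgs6 had neither. The 250 bases before the start held AP-1 matches in 2 of the 9 risen genes with a promoter and 1 of 14 fallen. TATA matches were found in 4 and 2 of them. The larger sets were searched over windows of 300 bases, which reach 50 bases into the gene. There the shares with AP-1 and TATA matches lay near those of all promoters. AP-1 matches stood in 8.59% of 128 promoters of genes called higher, 8.57% of 467 promoters of genes called lower and 6.89% of all 19281. TATA matches stood in 12.5%, 11.8% and 11.7%. The share with ATGCAAAT, the octamer that Oct4 binds, was 3.12%, 1.71% and 1.64%, from 4 and 8 promoters of called genes. GGGNGTG, a Klf motif, stood in 36.7%, 37.0% and 32.7%, and the AP-2 motif GCCNNNGGC in 22.7%, 25.3% and 20.9%. The E-box CACGTG stood in 10.2%, 5.14% and 8.25%, an interferon element in 2.34%, 4.07% and 3.32%, and CCAAT in 41.4%, 30.8% and 37.6%. All motifs were searched on both strands, and a match is a run of letters, not a bound site.

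Several keratins and anchoring genes of stratified epithelia rose. Of 24 genes of stratified keratins and the basal epidermis, 11 rose and 0 fell. The median difference was 0.82 over the list, against 0.07 over all genes. With the arrays quantile normalized again, 9 rose and 0 fell. Krt14, the type I keratin of the basal layer, read 9.93 and 9.87 on day 3, against 6.38 and 6.37 on day 1, a difference of 3.52 ± 0.12 (SE) or 11.5-fold (limma adjusted p = 8.15e-10). Its partner in basal cells, Krt5, was not called, at 6.01 and 6.19 on day 3 and 5.34 and 5.38 on day 1. The keratins of wounded and fast-growing epidermis moved with Krt14. Krt17 read 9.15 and 8.97 on day 3 and 5.83 and 6.14 on day 1, and Krt16 8.43 and 8.42 on day 3 and 5.49 and 5.25 on day 1. Krt6a read 7.74 and 7.67 on day 3 and 4.90 and 5.06 on day 1, a lower bound, and Krt6b 7.80 and 7.61 on day 3 and 5.96 and 5.88 on day 1. These keratins are close paralogs, and cross-reaction between their probes was not tested.

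Anchoring genes of the same list rose less. Itgb4, the hemidesmosome integrin, read 8.52 and 8.40 on day 3, against 6.71 and 6.71 on day 1. Sfn, the 14-3-3 protein of epithelia, differed by 1.60, the keratin Krt80 differed by 1.39 and the desmosome plaque gene Pkp1 by 1.22, while the desmosomal cadherins Dsc3 and Dsg3 differed by 1.03 and 1.02. Itga6, the partner of Itgb4, was not called and stood lower, at 8.71 and 8.79 on day 3 and 9.35 and 9.40 on day 1. Trp63, which encodes the p63 factor of basal cells, was near background with 5.71 and 5.61 on day 3 and 5.65 and 5.40 on day 1. Of 15 transcription factors of surface epithelia 0 were called by limma, with 9 at an unadjusted p under 0.05 and a list median of 0.25. Over all 20233 genes 8760 had such a p. Tfap2c, which encodes AP-2 gamma, stood at 0.45 ± 0.08 (SE).

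The cornified envelope list was mixed. Of 45 measured genes 8 rose and 2 fell, with a median of 0.26, and 23 of the 45 exceeded background. With the arrays quantile normalized again, 7 rose and 2 fell. Besides Sprr1b, Krtdap, Cnfn and Sprr1a, the dermokine gene Dmkn (1.44), the transglutaminase Tgm1 that crosslinks the envelope (1.34), the suprabasin gene Sbsn (1.32) and Lce3d (1.02) rose. Lce1h, a late envelope protein, fell to 8.04 and 7.84 on day 3, against 10.54 and 10.48 on day 1, a difference of -2.57 ± 0.16 (SE). Sprr3 fell to 5.51 and 5.53 on day 3, against 7.40 and 7.54 on day 1. For both, the day 3 level was close to the day 0 means of 7.83 and 5.51, below a higher day 1 level. Ivl, or involucrin, was not called, at -0.53.

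The gene order of GRCm38.p6 puts some of these genes in a few clusters. Over all genes 0.722% rose and 2.31% fell. In the epidermal differentiation complex, from S100a11 to S100a9, 52 genes were measured, of which 3 rose (Sprr1b, Sprr1a and Lce3d) and 4 fell (Lce1h, Sprr3, Lce1j and S100a11). In the type II keratin cluster, from Krt80 to Krt18, 6 of 30 rose and 0 fell. In the type I keratin cluster 3 of 48 rose, namely Krt14, Krt16 and Krt17, and 1 fell, Krt20. Median differences of these 3 clusters were 0.14, 0.28 and 0.14, so most of their genes moved little. Slurp1, a secreted Ly6 protein of the epidermis, rose to 8.61 and 8.55 on day 3, against 5.82 and 5.97 on day 1, and with Lypd2 it made up the 2 rises among 20 genes of the Ly6 cluster on chromosome 15. Lce1j, S100a11, Krt20 and Lypd2 were named after their values were seen.

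**Figure D2:**
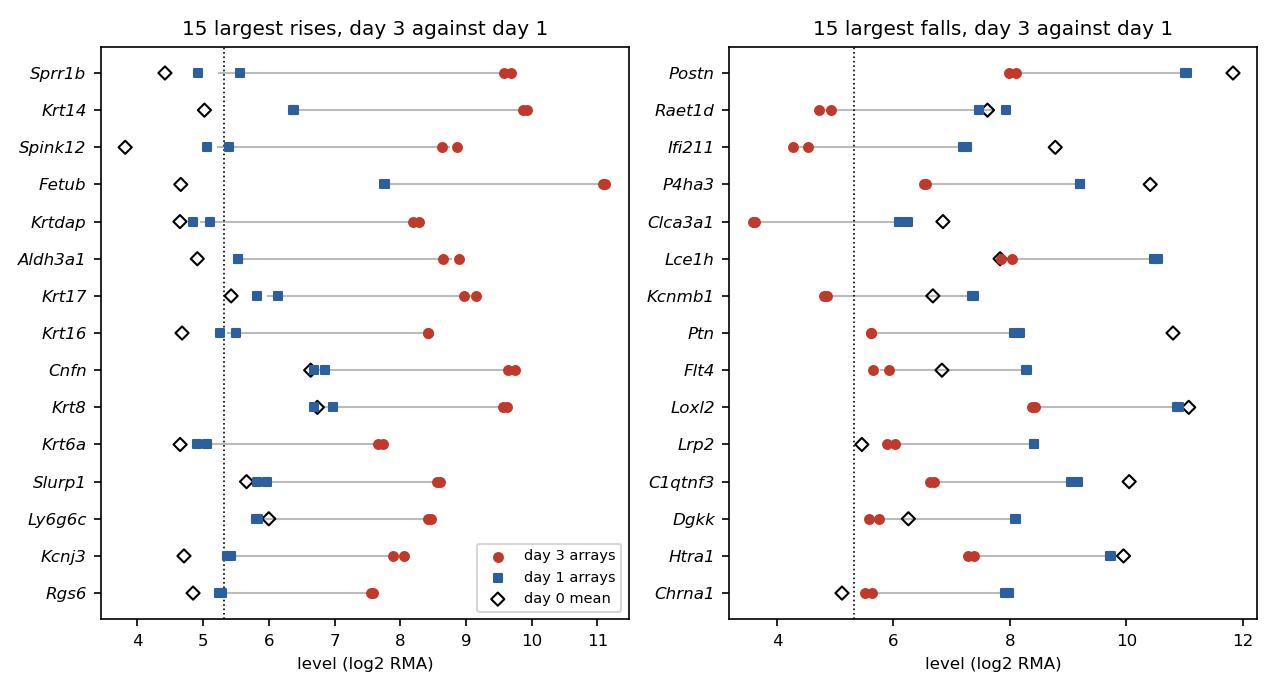
Log2 levels on the horizontal axis for the 15 genes with the largest rise (left) and the 15 with the largest fall (right), with day 3 arrays as red circles, day 1 arrays as blue squares, the day 0 mean as an open diamond and the background of 5.32 as a dotted line. Arrays of a day lie close together, and Lce1h, Kcnmb1, Flt4, Lrp2, Dgkk and Chrna1 have a day 1 level above the day 0 mean.

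Secreted inhibitors of proteases were among the largest rises as well. Spink12, of the Kazal family of serine protease inhibitors, read 8.63 and 8.85 on day 3, against 5.06 and 5.38 on day 1, a lower bound of 3.52 ± 0.13 (SE). Fetub, a cystatin-related inhibitor made mainly by the liver, read 11.11 and 11.09 on day 3 and 7.76 and 7.77 on day 1, with a day 0 mean of 4.66. Ahsg, its neighbour and the gene of fetuin-A, read 8.31 and 8.33 on day 3 and 5.95 and 6.26 on day 1. Fetub was thus already above its day 0 level on day 1. Serpinb5, or maspin, rose to 5.67 and 5.87 on day 3, against 3.64 and 4.08 on day 1. In the list of 35 protease inhibitors 4 rose and 3 fell, with a median of 0.07, equal to that of all genes. The 3 were Serpinf1, which encodes PEDF (-2.09), Serpinb9b (-1.42) and Serpina3n (-1.30). Among 22 secreted and surface serine proteases Klk7, which sheds the outermost skin cells, rose by 1.56, while Prss23 (-2.11), Plau, the urokinase gene (-1.61), and Prss35 (-1.27) fell.

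A few genes of simple epithelia moved in this interval. Of 37 such genes 3 rose and 1 fell, with a median of 0.28. From day 0 to day 1, which shares the day 1 arrays, 8 of them were called higher and 1 lower. The shares over all genes there were 7.62% and 6.54%. Krt8, the type II keratin of simple epithelia, read 9.63 and 9.56 on day 3, against 6.98 and 6.68 on day 1, a difference of 2.77 ± 0.14 (SE). Cdh1, which encodes E-cadherin, read 7.21 and 7.23 on day 3 and 5.61 and 5.54 on day 1. Dsp, or desmoplakin, averaged 9.28 on day 3 and 7.98 on day 1, with a day 0 mean of 5.10. These 3 rises stood beside genes with little change. Krt18, the partner of Krt8, was not called, at 7.06 and 6.55 on day 3 and 6.55 and 6.43 on day 1. Epcam, Ocln, Esrp1, Grhl2, Elf3, Ehf, Dsg2 and Marveld2 were under background on both days. Jup, or plakoglobin, fell to 9.38 and 9.33 on day 3, against 10.55 and 10.54 on day 1.

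Rises outside the epithelial lists were led by genes of diverse roles. Aldh3a1, an aldehyde dehydrogenase abundant in the cornea, read 8.89 and 8.64 on day 3, against 5.53 and 5.53 on day 1, a difference of 3.23 ± 0.18 (SE). Ly6g6c, another Ly6 family gene, read 8.42 and 8.46 on day 3 and 5.84 and 5.80 on day 1. Kcnj3, a G protein-gated potassium channel, read 8.06 and 7.89 on day 3 and 5.43 and 5.37 on day 1. Rgs6, which limits G protein signalling, read 7.56 and 7.59 on day 3 and 5.28 and 5.24 on day 1, a lower bound. Of 20 neural genes 2 rose, among them the synaptic vesicle gene Syt1, at 8.50 and 8.72 on day 3 and 7.13 and 7.09 on day 1, and 1 fell, the progenitor filament gene Nes, or nestin (-1.91). The neural genes Nefm, Dcx, Snap25 and Neurod1 were under background on both days. Of 23 trophoblast genes only Krt8, shared with the simple epithelial list, was called.

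Stress and amino acid genes showed a few rises. Slc7a11, the cystine transporter that feeds glutathione synthesis, read 8.43 and 8.51 on day 3, against 6.35 and 6.32 on day 1, a difference of 2.13 ± 0.07 (SE), with a day 0 mean of 8.20. Chac1, a glutathione-degrading enzyme and ATF4 target, read 7.62 and 7.83 on day 3 and 6.29 and 6.60 on day 1, with a day 0 mean of 9.01. Both were therefore lower on day 1 than on day 0. They were the 2 of 24 genes of the ATF4 and unfolded protein list that were called. Hmox1, or heme oxygenase, was the 1 of 21 oxidative stress genes called, at 10.86 and 10.75 on day 3 and 9.50 and 9.57 on day 1, whereas Gclm, a glutathione synthesis subunit, stood at 0.55.

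Extracellular matrix genes were among the falls. The largest fall was that of Postn, or periostin, a matrix protein of connective tissue. It read 8.10 and 7.99 on day 3, against 11.01 and 11.05 on day 1, a difference of -2.98 ± 0.20 (SE) or 7.89-fold (limma adjusted p = 1.5e-07). Of 34 non-collagen matrix genes 15 fell and 0 rose, with a median of -0.85. Tenascin-C, the Tnc gene, read 9.70 and 9.52 on day 3 and 11.91 and 11.94 on day 1. Mfap4, a microfibril protein, differed by -2.23, the elastic fibre gene Fbln5 by -2.19, the small proteoglycans Aspn and Bgn by -2.16 and -1.68, and Fn1, or fibronectin, by -1.19. Aspn was under background on day 3, at 4.08 and 4.15. Sparc, an abundant collagen-binding protein, was not called, at -0.73. Day 1 against day 0, which shares the day 1 arrays, had 17 of these 34 genes called lower and 0 higher. It also had 14 of 21 collagen genes lower and 0 higher, against 6.54% lower of all genes.

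Collagen genes and the enzymes that mature collagen fell too. Of 21 collagen genes 6 fell and 0 rose, with a median of -0.66. Col1a1 read 9.55 and 9.36 on day 3, against 11.10 and 11.10 on day 1, and Col1a2, the other chain of type I collagen, 8.55 and 8.42 on day 3 and 10.23 and 10.12 on day 1. Col6a3 (-1.76), Col5a2 (-1.71), Col8a1 (-1.35) and Col6a1 (-1.02) were the other four, of which Col6a1 stood at -0.94 without day 1 replicate 1 and -0.95 without day 3 replicate 2. Among 23 genes of collagen hydroxylation and crosslinking 10 fell and 0 rose, with a median of -0.78. P4ha3, a prolyl hydroxylase subunit, read 6.52 and 6.55 on day 3 and 9.21 and 9.21 on day 1, and Loxl2, a lysyl oxidase, 8.43 and 8.38 on day 3 and 10.90 and 10.86 on day 1. The other lysyl oxidase genes fell as well, with Loxl4 at -2.35, Lox at -2.16, Loxl1 at -1.83 and Loxl3 at -1.39. The prolyl hydroxylases use vitamin C as a cofactor, and vitamin C was present on both days.

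Of 16 metalloproteinases of the matrix and their inhibitors 5 fell, 0 rose and 11 were not called. Mmp9, a gelatinase, read 5.40 and 5.31 on day 3, against 7.31 and 7.05 on day 1. Mmp14, a membrane-bound protease, differed by -1.41, and the inhibitors Timp1, Timp3 and Timp2 by -1.34, -1.27 and -1.19. Htra1, a secreted serine protease, read 7.39 and 7.28 on day 3 and 9.72 and 9.73 on day 1. The list median was -0.62.

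Contractile genes, which make fibroblasts resemble smooth muscle, fell in 8 of 20 cases with 0 rising and a median of -0.94. Cnn1, or calponin, read 7.98 and 7.77 on day 3, against 10.22 and 10.22 on day 1. Tagln, an actin-binding protein, read 9.31 and 9.06 on day 3 and 11.35 and 11.32 on day 1. Actg2 (-2.17), Myl9 (-2.05), Des (-1.84), Tpm2 (-1.82), Cnn2 (-1.42) and Csrp1 (-1.06) fell as well. Acta2, smooth muscle actin, was not called, at 11.58 and 11.53 on day 3 and 12.36 and 12.52 on day 1. Kcnmb1, a potassium channel subunit of smooth muscle, fell to 4.86 and 4.80 on day 3, against 7.36 and 7.39 on day 1, a lower bound.

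Of 23 fibroblast markers 7 fell and 0 rose. Thy1, the surface protein whose loss is used to follow reprogramming, read 8.54 and 8.39 on day 3, against 10.77 and 10.83 on day 1, a difference of -2.34 ± 0.25 (SE). Igfbp7 (-2.17), Cav1, or caveolin (-1.56), Pdpn (-1.31), S100a4 (-1.30), Igfbp3 (-1.15) and the interleukin receptor Il1r1 (-1.04) followed. Vim, or vimentin, was not called, at 12.80 and 12.83 on day 3 and 12.92 and 12.93 on day 1. The median level of the list was 8.01 and 7.83 on day 3, against 8.76 and 8.67 on day 1, with both day 3 arrays below both day 1 arrays. Mesenchymal transcription factors moved less in this interval. Among 25 of them, Osr1 fell to 6.45 and 6.58 on day 3, against 8.15 and 8.14 on day 1, and Meox2 rose to 7.89 and 8.08 on day 3, against 6.47 and 6.76 on day 1. Meox2 had an adjusted p (limma) of 0.0579 without day 1 replicate 1. Snai1 (-0.78), Twist1 (-0.40), Prrx1 (-0.39), Snai2 (-0.32) and Zeb1 (-0.28) were not called. Day 1 against day 0, which shares the day 1 arrays, had 18 of these 25 factors called lower and 0 higher. The share of all genes called lower there was 6.54%.

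**Figure D3:**
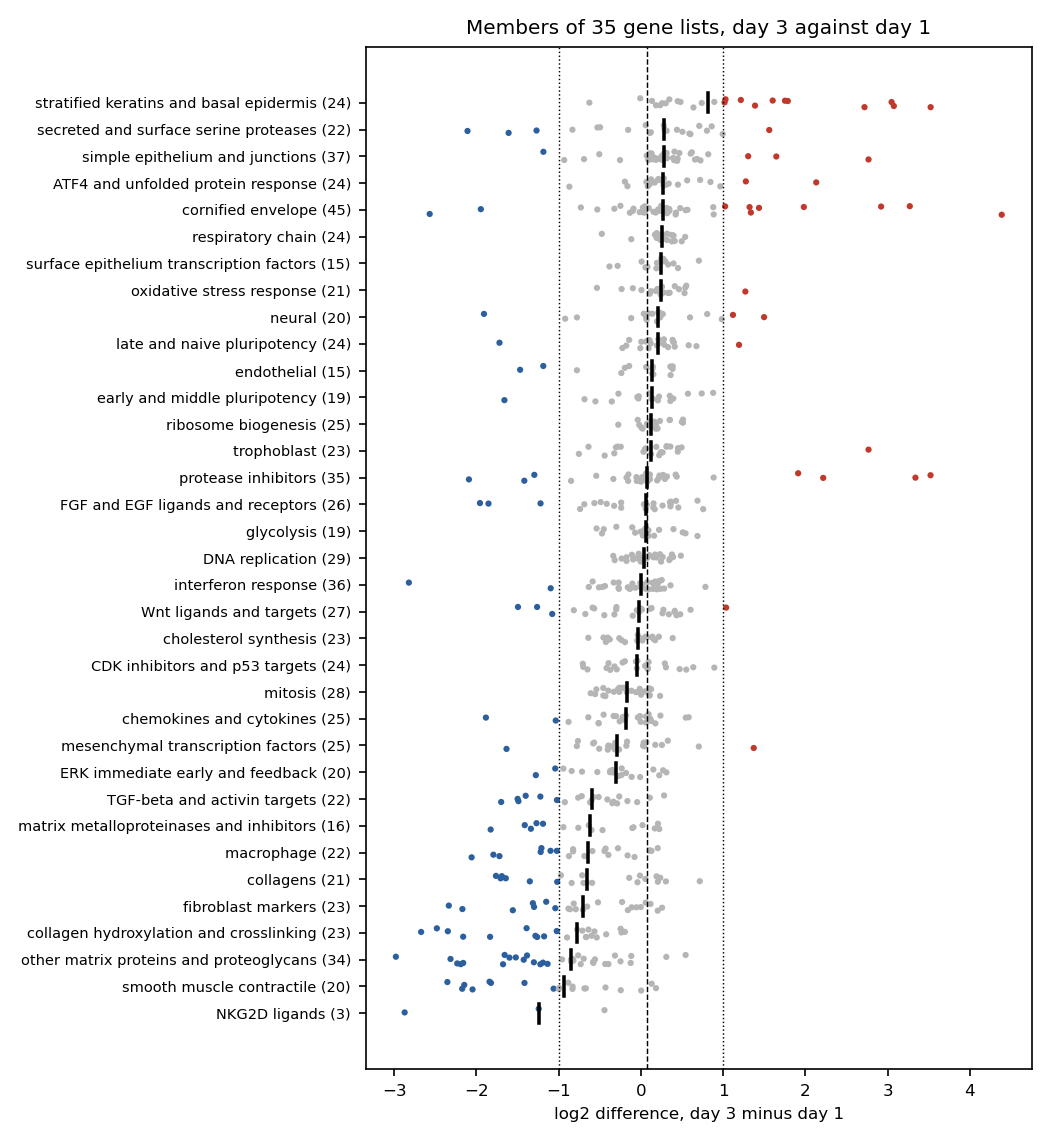
Log2 differences, day 3 minus day 1, for the measured genes of gene lists, 1 point a gene and 1 row a list, with called genes in red (higher) and blue (lower), the list median as a bar and the median of all genes as a dashed line. The stratified keratin list lies to the right with a median of 0.82, and the contractile, matrix, crosslinking and collagen lists lie to the left with medians of -0.94, -0.85, -0.78 and -0.66.

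A minority of the signalling genes fell. In the list of 22 TGF-beta and activin genes 6 fell and 0 rose, with a median of -0.59. The ligand Tgfb1 averaged 7.32 on day 3 and 9.02 on day 1, and Inhba, which encodes activin A, read 9.15 and 9.16 on day 3 and 10.62 and 10.67 on day 1. Fst, or follistatin, which traps activin, read 9.63 and 9.52 on day 3 and 11.09 and 11.06 on day 1. The inhibitory Smad7 differed by -1.40, and the targets Ccn2 and Pmepa1 by -1.22 and -1.02. Pmepa1 stood at -0.98 without day 1 replicate 1 and -0.97 without day 3 replicate 2. The other 16 genes of the list were not called. Of 26 FGF and EGF family genes the ligands Fgf2 (-1.96), Nrg1 (-1.85) and Hbegf (-1.22) fell, and of 20 ERK response genes Dusp6 (-1.28) and Etv4 (-1.04, or -0.99 without day 3 replicate 1) fell. Among 27 Wnt genes the ligands Wnt5a (-1.49) and Wnt2 (-1.26) and the receptor Fzd2 (-1.08) fell, and the secreted Wnt modulator Sfrp2 rose (1.04). Without day 1 replicate 2, Fzd2 and Sfrp2 stood at -0.96 and 0.88. Medians of the FGF and EGF, ERK and Wnt lists were 0.06, -0.30 and -0.02.

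Some of the largest falls belonged to genes that day 1 cells had at a higher level than fibroblasts. Lrp2, or megalin, an endocytic receptor of absorptive epithelia, had a mean of 5.46 on day 0, read 8.41 and 8.42 on day 1, and 6.02 and 5.89 on day 3. Chrna1, the muscle acetylcholine receptor subunit, had a mean of 5.12 on day 0, read 7.91 and 7.98 on day 1, and 5.63 and 5.51 on day 3. Flt4, the lymphatic VEGF receptor, had a mean of 6.83 on day 0, read 8.30 and 8.28 on day 1, and 5.93 and 5.66 on day 3. Their day 1 level was thus the highest of the first 3 sampled days. Dgkk, a diacylglycerol kinase, read 5.58 and 5.75 on day 3, against 8.11 and 8.08 on day 1. Over all 468 fallen genes the highest of the 9 group means was that of day 0 for 238, of day 1 for 152, of iPSC for 32, of day 18 for 27 and of day 15 for 14.

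Other large falls were those of immune recognition and secreted genes. Raet1d, a ligand by which stressed cells show themselves to the NKG2D receptor of killer cells, read 4.93 and 4.73 on day 3, against 7.46 and 7.94 on day 1, a lower bound of -2.87 ± 0.23 (SE). Raet1e, its paralog, read 4.57 and 4.81 on day 3 and 5.94 and 5.92 on day 1, and H60b, the third of these ligands, was not called at -0.44. Ifi211, an interferon-inducible gene of the p200 family, read 4.27 and 4.54 on day 3 and 7.19 and 7.25 on day 1. Of the 36 genes of the interferon list 11 had an unadjusted p under 0.05 by limma, against 8760 of all 20233. Ifi211 and Ifit2 (-1.10, or -0.91 without day 3 replicate 1) were the 2 that fell, and the median was 0.01. Of 25 chemokines and cytokines, Ppbp (-1.88) and Cxcl14 (-1.04) fell, and Cxcl14 stood at -0.97 without day 1 replicate 2 and -0.86 without day 3 replicate 2. Clca3a1, a secreted regulator of chloride channels, differed by -2.57, the growth factor Ptn by -2.51 and the adipokine-like C1qtnf3 by -2.45.

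Markers of macrophages, cells that embryonic fibroblast cultures can hold, were lower as well. Of 22 such genes 7 fell and 0 rose, with a median of -0.64. Their summed level on the linear scale was 2296 and 2277 on day 3, against 3628 and 3882 on day 1. Fcer1g, the Fc receptor gamma chain, read 6.28 and 6.28 on day 3 and 8.19 and 8.48 on day 1, and C1qb, a complement gene, 6.80 and 6.83 on day 3 and 8.58 and 8.64 on day 1. Mrc1 (-1.72), Itgam (-1.22), C1qc (-1.21), C1qa (-1.10, or -0.85 without day 3 replicate 2) and Laptm5 (-1.02) were the other falls. Lyz2, which encodes lysozyme, was not called, at 9.99 and 9.99 on day 3 and 10.24 and 10.30 on day 1. Itgax, Cd163, Aif1 and Clec4d were under background on both days, and the part of these cells in the falls of immune genes was not tested. Of 15 endothelial markers Flt1 (-1.47) and Emcn (-1.19, or -0.91 without day 1 replicate 2) fell, while Pecam1, Cdh5, Tie1, Plvap and Sox17 were under background on both days.

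Several programmes that change in the course of reprogramming had 0 called genes in this interval. Since 0.722% of all genes rose and 2.31% fell, lists of this size can hold 0 called genes without differing from other genes. They were DNA replication (29 genes, median 0.04), mitosis (28, -0.17), cell cycle inhibitors and p53 targets (24, -0.05), ribosome biogenesis (25, 0.13), glycolysis (19, 0.06), the respiratory chain (24, 0.25) and cholesterol synthesis (23, -0.03). Against day 0, genes called higher on day 1 numbered 25, 21, 1, 23, 3, 2 and 1 in these lists, in this order. Genes called lower there numbered 0, 0, 6, 0, 0, 0 and 2. Of all genes 7.62% were higher and 6.54% lower on day 1 than on day 0. Cdkn2a, which encodes p16 and p19Arf, stood at 9.30 and 9.29 on day 3, against 8.82 and 8.66 on day 1, a difference of 0.55 ± 0.09 (SE). By limma, genes at an unadjusted p under 0.05 numbered 14, 14, 14, 12, 10, 21 and 11 in these lists, in the same order. Over all 20233 genes 8760 had such a p. At an adjusted p under 0.05 with no minimum difference there were 6581 genes. Small differences such as that of Cdkn2a thus passed the test of limma but not the fold limit.

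Pluripotency genes were nearly all uncalled, as were 19619 of all 20233 genes. Of 19 early and middle pluripotency genes 0 rose and 1 fell, Etv5, an ETS factor, with a mean of 5.97 on day 3, against 7.63 on day 1. Of 24 late and naive ones Tet2, which oxidises 5-methylcytosine, rose to 8.54 and 8.54 on day 3, against 7.31 and 7.38 on day 1, and the matrix protein gene Spp1 fell (-1.72). Nanog was at 5.27 and 5.38 on day 3 and at 4.64 and 5.30 on day 1, with means of 7.10 on day 5 and 12.48 in iPSC. Its arrays on day 1 lay apart and its level was at background on both days. The list medians were 0.13 and 0.20. Of 6 sex-linked genes 0 were called by limma and 3 had an unadjusted p under 0.05, against 8760 of all 20233. Ddx3y stood at -0.77 and Uty at -0.48. The Y-linked Ddx3y averaged 7.75 on day 5 and 4.70 on day 7, and a common origin of the groups was not tested.

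**Figure D4:**
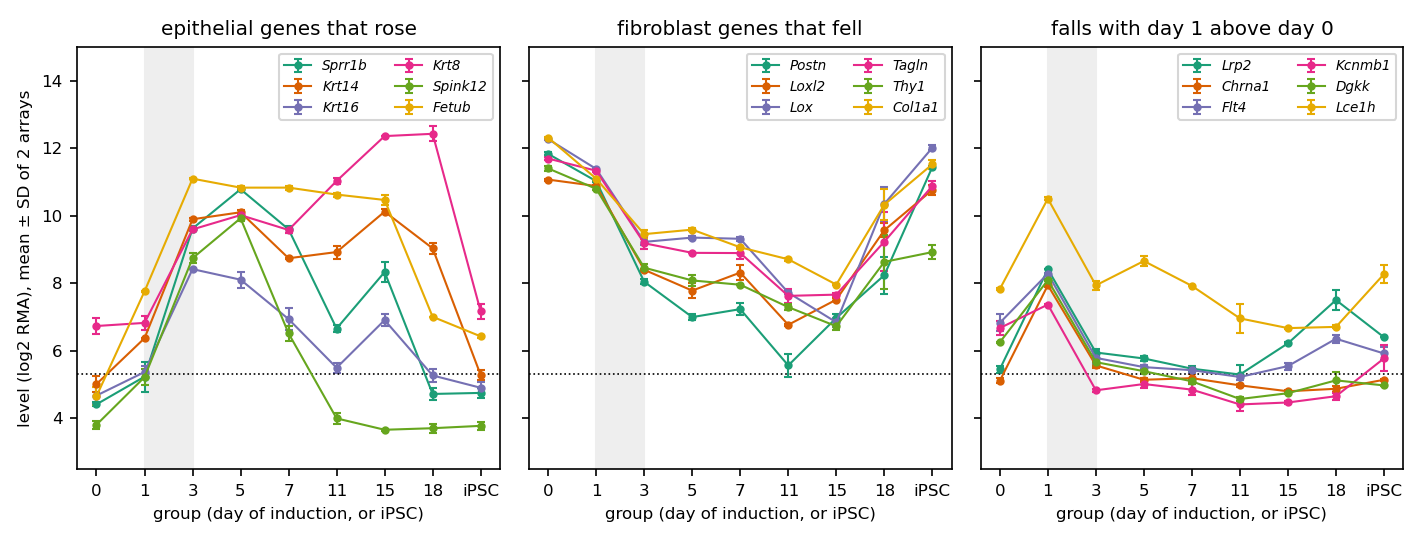
Mean log2 levels over the 9 groups for genes named in the text, with error bars of 1 SD over the 2 arrays, the background of 5.32 dotted and day 1 to day 3 shaded. The epithelial genes on the left climb within the shaded interval, the fibroblast genes in the middle drop in it and stand higher again in iPSC, with Postn at 11.44, and the genes on the right peak on day 1.

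The difference between intervals was tested directly, as the change of day 1 to day 3 minus the change of day 5 to day 7, which shares no array with it and spans the same number of days. In that test 318 of all genes were higher (1.57%) and 676 lower (3.34%). From day 5 to day 7 itself 129 genes were higher (0.638%) and 78 lower (0.386%), against 146 and 468 from day 1 to day 3. Of the 146 risen genes, 113 (77.4%) differed in the same direction between the intervals, and of the 468 fallen ones 368 (78.6%) did. These shares describe genes chosen on the first of the 2 changes. Of 6 sex-linked genes 4 were called higher in the test, with 4 called lower from day 5 to day 7. Whether the day 5 and day 7 cells shared an origin was not tested. For Spink12 the difference of the changes was 6.93 ± 0.19 (SE), as it rose in the first interval and fell by 3.41 in the second. Sprr1b, Krt14, Cnfn and Krt16 also fell from day 5 to day 7, by 1.19, 1.36, 1.53 and 1.17 on the log2 scale. The reverse order was seen for Fcgr2b, an inhibitory Fc receptor, which fell by 1.35 and then rose by 2.26, and for F2rl1, a protease-activated receptor, which fell by 1.62 and then rose by 1.61. Etv5 likewise fell by 1.66 and rose by 1.55.

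The next interval, day 3 to day 5, shares the day 3 arrays. In it 160 genes were higher (0.791%) and 73 lower (0.361%). Day 1 against day 0, which shares the day 1 arrays, had 1541 higher (7.62%) and 1324 lower (6.54%). Levels in time order show how the named genes went on. Sprr1b had means of 10.79 on day 5 and 8.34 on day 15, and Krt14 had 10.11 and 10.12. Krt8 had means of 10.02 on day 5, 9.58 on day 7 and 12.36 on day 15, Cdh1 7.31, 8.09 and 10.96, and Rgs6 9.71, 9.63 and 5.02. The simple epithelial genes were thus highest late, and Rgs6 and Spink12 early. Among all 146 risen genes the highest group mean was on day 5 for 45, day 15 for 30, day 7 for 24 and day 3 for 17, and their median level was 5.68 on day 0, 7.93 by day 3, 8.39 by day 5, 8.28 by day 15 and 6.25 in iPSC.

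Comparisons that share no array with day 3 or day 1 gave the later course of the called genes. Between iPSC and day 0, 2038 of all genes were higher (10.1%) and 1981 lower (9.79%). Of the 146 genes risen by day 3, 44 (30.1%) were higher in iPSC and 22 (15.1%) lower, which is 2.16% of all genes higher there and 1.11% of those lower. Of the 468 fallen genes 256 (54.7%) were lower in iPSC and 27 (5.77%) higher, which is 12.9% of all lower and 1.32% of all higher genes. The iPSC arrays held high levels of some matrix genes, with Postn at 11.44, Col1a1 at 11.53 and Lox at 12.02, and the source of that RNA was not tested.

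From day 5 to day 15, 1038 of all genes were higher (5.13%) and 513 lower (2.54%). Of the risen genes 49 (33.6%) were lower on day 15 than on day 5 and 32 (21.9%) higher. Of the fallen genes 57 (12.2%) were lower and 97 (20.7%) higher. From day 5 to day 7, 23 of the risen genes (15.8%) were lower and 9 (6.16%) higher, and of the fallen genes 4 (0.855%) were lower and 12 (2.56%) higher. The largest class in each case was of genes not called, with 65 of the risen and 314 of the fallen genes from day 5 to day 15, and 114 and 452 from day 5 to day 7.

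**Figure D5:**
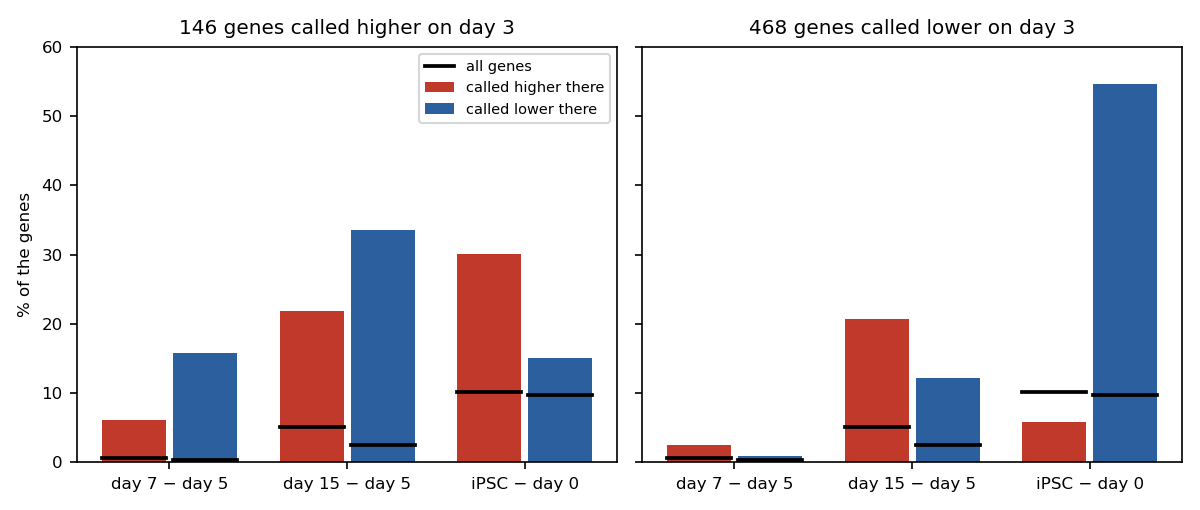
Bars, from 0, give the percent of the 146 risen and 468 fallen genes called higher or lower in 3 comparisons that share no array with day 3 or day 1, and black lines give the percent of all genes. Of the fallen genes 54.7% were lower in iPSC than on day 0, against 9.79% of all genes, and of the risen genes 33.6% were lower on day 15 than on day 5, against 2.54%.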

How the data were processed

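Total RNA of 18 samples was read on Affymetrix arrays. The authors deposited log2 values from RMA, as the submitters' processing notes say. This method removes background, brings arrays to 1 distribution and summarises probes, so a change common to most genes is hidden. Its version, the chip definition and the build are not given in the sources. Of 29643 probe sets, named by RefSeq accession, 27260 matched 1 symbol in a GRCm38.p6 table and 2383 matched none. The probe set with the highest mean stood for each of 20233 genes, and 31 genes had values identical to another gene's. One mean per group was fitted to all 18 arrays with limma 3.58.1 in R 4.3.3 (9 residual degrees of freedom), day 3 minus day 1, and checked on simulated data. The number of arrays limits the precision, with a median SE of 0.0976. Each SE pools the spread of all groups, and the day 18 arrays lay furthest apart (r = 0.9925, 264 genes over 2-fold). For Ifi211, a day 18 SD of 1.51 thus entered the SE of 0.44. Without the day 18 arrays 147 genes were called higher and 469 lower. Genes were named by rule: the 15 largest rises and falls, 5 in each direction by interval difference, up to 6 called members in each of 37 lists, and a fixed set. Other list members given in the text were named after their values were seen. Predicted and receptor genes were left out (6 rises and 1 fall). Results for 2 genes are not reported here. Members and lists were chosen with earlier results of these data known. Alternatives were another quantile normalization, centring, filters, probe set means, all matched probe sets as separate features, leaving out arrays, a replicate block, limma's treat and no fold limit.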

Additional observations from a re-analysis of the deposited data

Results flagged for a closer look

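Some genes changed one way from day 1 to day 3 and differed from that from day 5 to day 7, by limma's test of the difference of the 2 changes, which use different arrays. In all, 994 genes passed that test with a difference of at least 1, and 637 did in the comparison with day 3 to day 5, which shares the day 3 arrays. Of 6 sex-linked genes 4 were among the 994, and a common origin of the day 5 and day 7 cells was not tested. Among the named genes called in opposite directions in the 2 intervals, Spink12 had the largest difference of changes, 6.93 on the log2 scale, followed by Sprr1b at 5.58, Krt14 at 4.88, Cnfn at 4.45, Krt16 at 4.22 and Serpinb5 at 3.41. Sprr1a stood at 3.04, Krt6b at 2.86, Klk7 at 2.80 and Syt1 at 2.55. In the other direction, lower by day 3 and higher by day 7, were Fcgr2b at -3.60, F2rl1 at -3.24, Etv5 at -3.21, Prss35 at -2.39 and Raet1e at -2.37.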

How the results depend on the processing

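The counts of called genes depended mainly on the fold rule. With the adjusted p alone and no minimum difference, 3405 genes were higher and 3176 lower on day 3, and 5305 and 2688 differed in change from days 5 to 7 and days 3 to 5. The later counts were then 1595 risen genes higher and 1952 fallen genes lower in iPSC, and 1198 risen and 849 fallen genes lower on day 15. With limma's treat, which tests against a log2 limit of 1, the same 8 counts were 50, 128, 244, 81, 15, 44, 15 and 5. Leaving out 1 array at a time gave 144 to 149 genes higher, 448 to 481 lower, 949 to 1020 and 568 to 631 for the differences between intervals, 43 to 46 and 242 to 260 for iPSC, and 47 to 53 and 57 to 59 for day 15. Another quantile normalization gave 143 and 420 calls and centring 160 and 435, and of the 614 called genes 534 and 581 were shared. With the 27260 probe sets that matched 1 symbol as separate features, 189 were higher and 675 lower, with 1384 and 908 for the intervals. Medians near 0 of the protease inhibitor, interferon, cholesterol, Wnt and sex-linked lists changed sign with the scaling. The fit to the arrays of day 3 and day 1 alone cannot give the other comparisons. No named gene changed its direction while called. Meox2 had an adjusted p of 0.0579 without day 1 replicate 1, and Col6a1 and Pmepa1 were under the fold limit after either scaling, as were Etv4 and Fzd2 after the quantile one. Same-numbered arrays of day 3 and day 1 deviated together only weakly (r = 0.1492), and share only a number. That value was the highest of 36 pairs of groups, of which the lowest was -0.1893. A replicate block gave 146 higher and 468 lower, with 994 and 640 for the intervals, 44 and 256 for iPSC and 49 and 57 for day 15.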
